A study of Mus musculus with 17 samples.

Results

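The p53 pathway was followed through 5 stages of mouse preimplantation development by way of 7 genes: Trp53, Mdm2, Cdkn1a, Gadd45a, Ccng1, Btg2 and Ddit4. The members were the probe sets that the array's annotation assigns to exactly 1 of these genes. Of 12488 probe sets on the array, 7 qualified, and they stood for 6 of the 7 genes. Trp53 itself, which encodes p53, was not analysed here, because no probe set was annotated to it. Of the 7 probe sets, 6 passed the filter on dim signals, which asked for a signal above 41.1 on at least 3 arrays, and a second, dim probe set of Cdkn1a did not.

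The arrays were Affymetrix MG-U74Av2 arrays, each hybridised with RNA that had been through 2 rounds of amplification. Oocytes and 8-cell embryos had 4 arrays each, and 1-cell embryos, 2-cell embryos and blastocysts had 3 each. The labels name no treatment, genotype, strain, age, oocyte maturation stage or number of embryos per sample. Nothing in them says that the samples of a stage were collected separately, so a p-value covers the spread among these samples alone, and that spread may be technical.

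The p53 protein is a transcription factor held at a low level in unstressed cells. Mdm2 is the ubiquitin ligase that marks p53 for destruction, and its own gene is switched on by p53, which closes a feedback loop. DNA damage and other stresses release p53 from Mdm2, and p53 then raises targets that halt the cell cycle (Cdkn1a, Btg2), respond to DNA damage (Gadd45a), act on Mdm2 (Ccng1) or damp growth signalling (Ddit4). Most of these targets also answer to other regulators, so their transcripts alone do not report p53 activity. No stress was applied here, and the values describe transcript levels in development.

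The sequences before the transcription starts are shown because a p53 site is made of 2 copies of a 10-base consensus, the p53 decamer. A single match is thus only part of a site. They come from RefSeq on build GRCm38.p6 and are written 5′ to 3′ on the gene's strand, with matches to the decamer in capitals. For Cdkn1a, RefSeq gives 2 starts, and the 250 bases before each are shown (chr17:29090729-29090978 and chr17:29093519-29093768, plus strand). For Mdm2 (chr10:117710915-117710964, minus strand), Gadd45a (chr6:67037418-67037467, minus strand) and Ccng1 (chr11:40755442-40755491, minus strand), the 50 bases around the match are shown.
Cdkn1a start 1: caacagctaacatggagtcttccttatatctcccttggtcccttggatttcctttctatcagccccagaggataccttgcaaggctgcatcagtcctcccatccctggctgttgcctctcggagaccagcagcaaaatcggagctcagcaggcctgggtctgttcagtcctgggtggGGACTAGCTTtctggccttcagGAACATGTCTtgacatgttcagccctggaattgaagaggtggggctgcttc
Cdkn1a start 2: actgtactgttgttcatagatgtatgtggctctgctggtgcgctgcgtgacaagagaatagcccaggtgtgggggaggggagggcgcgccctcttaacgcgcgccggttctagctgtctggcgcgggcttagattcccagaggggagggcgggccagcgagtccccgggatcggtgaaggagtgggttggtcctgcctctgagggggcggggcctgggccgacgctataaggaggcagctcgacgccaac
Mdm2: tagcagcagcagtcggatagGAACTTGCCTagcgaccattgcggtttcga
Gadd45a: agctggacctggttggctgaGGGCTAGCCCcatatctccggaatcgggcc
Ccng1: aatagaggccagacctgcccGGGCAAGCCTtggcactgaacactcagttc

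Windows of 300 bases (250 before and 50 after a start) held a decamer match on either strand in 8.36% of 32851 promoters. Of the 7 windows of the 6 measured genes, 4 held a match. Cdkn1a start 1 held 2 matches, beginning 73 and 51 bases before the start. The matches of Mdm2, Gadd45a and Ccng1 began 186, 40 and 185 bases before theirs. Cdkn1a start 2, Btg2 and Ddit4 had no match in this window. The best-known p53 sites of Mdm2 and Gadd45a lie inside introns, which these windows do not cover. The array does not tell which Cdkn1a start was used, and a match is a description of letters, not a site of binding.

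The libraries followed their stage labels. The summed signal of 8 oocyte marker genes was 34017 to 36588 on oocyte arrays and 297 to 412 on blastocyst arrays. For 14 blastocyst markers it was 840 to 1093 in oocytes and 10514 to 11492 in blastocysts. Markers of cumulus and granulosa cells summed to 794 to 1442 over all arrays, with 3 to 6 of 14 above the filter at a stage. Array 2 of the 8-cell stage stood apart: its 14 oviduct and uterus markers summed to 7868, against 626 to 1276 on the other 8-cell arrays. Most of that came from Ovgp1, an oviduct secretory glycoprotein, with a signal of 6212 there and 43.1 to 114 on the others. Without Ovgp1 and Ltf, the secreted protein lactotransferrin, the sum on that array was 827. The 2-cell arrays had Ovgp1 signals of 688 to 1272, below 8-cell array 2 and above every other array. Results that involve the 8-cell stage are therefore given without array 2 where it bears on them. Within a stage the correlation between arrays was 0.934 to 0.979, and the number of arrays limits the precision. In whole embryos, fewer cells of a type and less RNA per cell cannot be told apart.

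Changes are differences of mean log2(signal + 10.7) ± SE from a limma fit over all 17 arrays. This scale understates the change of dim genes. The arrays had been scaled to a near-equal mean, so every value is relative to its array's total signal. A second scaling, on bacterial transcripts spiked in at hybridisation, is given beside the member comparisons described here whose call or direction it alters. The spikes themselves differed by 1.12 on the log2 scale between 1-cell embryos and oocytes and by -1.18 between blastocysts and 8-cell embryos. The spikes were added at hybridisation, after the RNA had been amplified, so values with the spike scaling cannot give the amount of RNA per embryo. What made the spikes differ between stages was not tested.

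**Figure D1:**
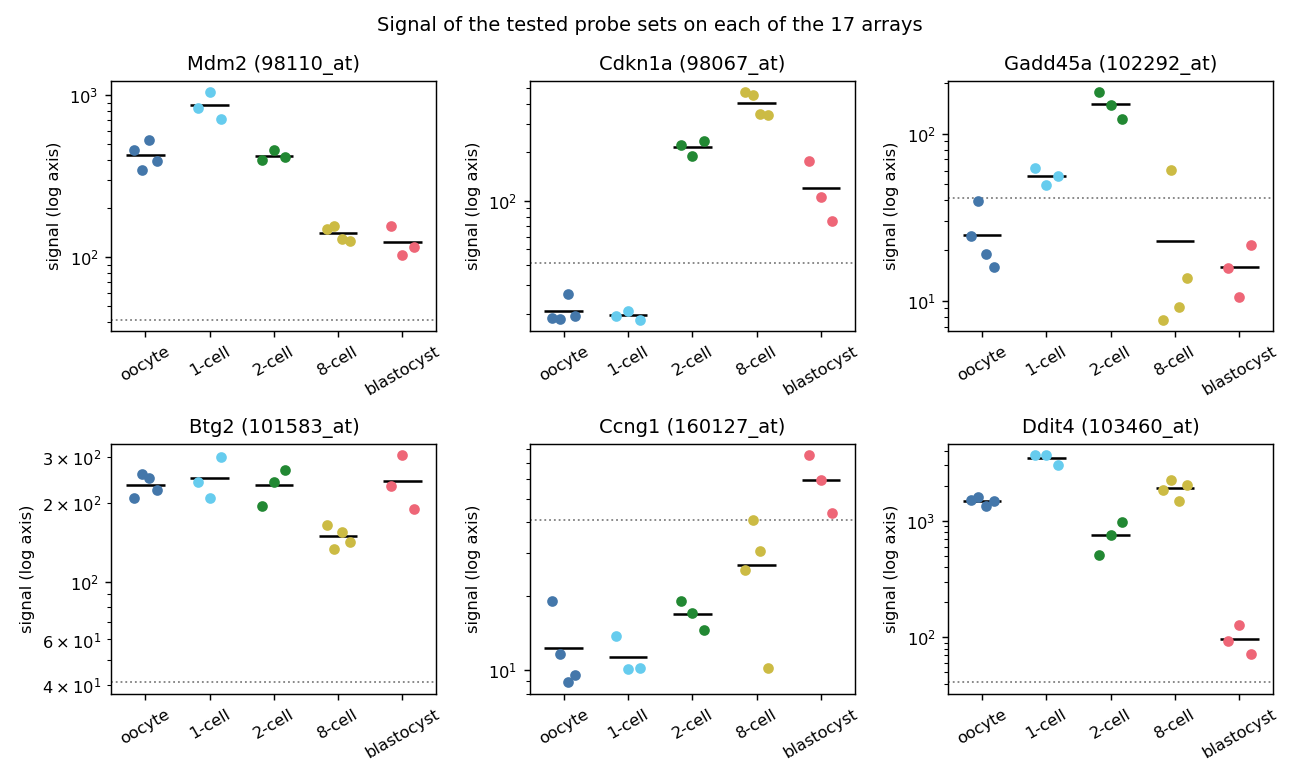
Signals of the 6 member probe sets that passed the filter, on each of the 17 arrays, by stage (points, arrays, and bars, stage means, with signal on a log axis). Mdm2 is highest in 1-cell embryos (716 to 1043), Cdkn1a in 8-cell embryos (341.1 to 469.7), Gadd45a in 2-cell embryos (123 to 176) and Ccng1 in blastocysts (43.8 to 75.4), while Ddit4 is lowest in blastocysts (72.5 to 127).

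Mdm2 transcripts were high in oocytes, highest in 1-cell embryos and low from the 8-cell stage on. The signal was 456.9, 343.7, 528.6 and 391.7 on the oocyte arrays, 840.3, 1043 and 715.9 in 1-cell embryos and 395.9, 459.2 and 416.5 in 2-cell embryos. It was 149.8, 155.5, 129.7 and 125.7 in 8-cell embryos and 156.2, 103.2 and 114.9 in blastocysts. All 1-cell arrays lay above every array of the other stages, and all 8-cell and blastocyst arrays lay below those of the 3 earlier stages. Mdm2 rose by 0.99 ± 0.18 from the oocyte to the 1-cell stage (limma adjusted p = 1.49e-04), and fell by 1.00 ± 0.19 from there to the 2-cell stage (adjusted p = 1.75e-04). It fell again by 1.53 ± 0.18 to the 8-cell stage (adjusted p = 2.78e-07). Neither oocytes and 2-cell embryos (0.01 ± 0.18) nor 8-cell embryos and blastocysts (-0.17 ± 0.18, limma adjusted p = 0.478) differed beyond their spread.

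The Mdm2 peak of 1-cell embryos was not called with the spike scaling, but no other change of processing altered the call of its rise or fall. With each array left out in turn, the rise from the oocyte was 0.85 to 1.12. With the spike scaling the change from the oocyte was -0.12 ± 0.34 (limma adjusted p = 0.750). That from the 1-cell to the 2-cell stage was -0.77 ± 0.37 (limma adjusted p = 0.0966), and both SEs were larger than those as scaled by the authors. The 2-cell stage was then below oocytes by -0.90 (limma adjusted p = 0.0225). The fall to the 8-cell stage remained, at -2.17 (limma adjusted p = 1.04e-07), while blastocysts then lay above 8-cell embryos by 1.01 (adjusted p = 0.00849).

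Cdkn1a, the p21 inhibitor of cyclin-dependent kinases, was at background in oocytes and 1-cell embryos and present from the 2-cell stage. The signal of its brighter probe set was 18.8, 18.6, 26.5 and 19.4 on the oocyte arrays and 19.5, 20.8 and 18.4 in 1-cell embryos, all below the filter. It was 223.3, 189.5 and 233.2 in 2-cell embryos and 469.7, 455.6, 347.6 and 341.1 in 8-cell embryos. On the blastocyst arrays it was 177.6, 106.1 and 74.7. Every 2-cell array lay above every blastocyst array and below every 8-cell array.

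The rise of Cdkn1a between the 1-cell and 2-cell stages was 2.90 ± 0.24 (limma adjusted p = 2.11e-09), an 11-fold ratio of mean signals that depends on the dim 1-cell values. It rose further by 0.86 ± 0.23 to the 8-cell stage (limma adjusted p = 0.00286). It then fell by 1.73 ± 0.23 to the blastocyst (adjusted p = 2.82e-06), where it was still 1.98 ± 0.23 above oocytes (adjusted p = 1.22e-07). Oocytes and 1-cell embryos differed by -0.05 ± 0.23 (limma adjusted p = 0.895). The rise at the 2-cell stage held with the spike scaling, at 3.12 (limma adjusted p = 1.47e-10). The later steps did not pass there: 0.22 to the 8-cell stage (adjusted p = 0.618) and -0.56 to the blastocyst (adjusted p = 0.164).

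The second probe set of Cdkn1a was dim throughout and went above the filter on 2 of 17 arrays, both of 8-cell embryos (72.1 and 70.8). Its other signals lay between 3.40 and 32.0. Fitted without the filter, it gave 1.53 ± 0.41 for 8-cell against 1-cell embryos (limma adjusted p = 0.00370). For 2-cell against 1-cell embryos it gave 0.81 ± 0.44 and did not pass (limma adjusted p = 0.190).

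Gadd45a, a stress sensor that binds cell cycle and repair proteins, had a short peak in 2-cell embryos. The signal was 24.2, 39.2, 19.0 and 15.8 on the oocyte arrays and 62.5, 49.4 and 55.6 in 1-cell embryos. It was 176.2, 148.9 and 122.7 in 2-cell embryos. It was 7.70, 60.1, 9.10 and 13.6 in 8-cell embryos and 15.6, 10.5 and 21.5 in blastocysts. The 3 values of 2-cell embryos were above those of every other array, and 1 of the 8-cell arrays, array 2, stood apart from the other 3.

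Gadd45a rose by 1.26 ± 0.38 from the 1-cell to the 2-cell stage (limma adjusted p = 0.00974) and was 2.21 ± 0.36 above oocytes there (adjusted p = 2.29e-05), a comparison in which 49.0% of all probe sets were called. It fell by 2.49 ± 0.36 to the 8-cell stage (limma adjusted p = 4.29e-06), and by 2.94 ± 0.27 without 8-cell array 2 (adjusted p = 1.49e-08). That array and the 2-cell arrays are those with high oviduct markers, and the part of these in the Gadd45a signal was not tested. Both steps held with the spike scaling, at 1.48 and -3.13. The difference between 1-cell embryos and oocytes was 0.95 ± 0.36 (limma adjusted p = 0.0413). It was not called when 1 of 6 arrays was left out (adjusted p = 0.0657, 0.0905 and 0.108 without oocyte array 1, 3 or 4, and 0.121, 0.0688 and 0.0841 without 1-cell array 1, 2 or 3). It was also not called with the spike scaling (-0.16).

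Ccng1, cyclin G1, which recruits a phosphatase to Mdm2, was near background until the blastocyst. The signal was 19.2, 11.6, 8.90 and 9.50 on the oocyte arrays, 13.7, 10.1 and 10.2 in 1-cell embryos and 19.1, 17.1 and 14.6 in 2-cell embryos. It was 25.5, 40.8, 30.5 and 10.2 in 8-cell embryos and 75.4, 59.7 and 43.8 in blastocysts. The 3 blastocyst arrays lay above all others, and they alone took the probe set through the filter, so a difference there was built into its selection, and Ccng1 is left out of the counts of members below. Its blastocyst comparisons are therefore tested in the fit without the filter. There the blastocyst lay above the 8-cell stage by 0.96 ± 0.28 (limma adjusted p = 0.0145) and above oocytes by 1.61 ± 0.28 (adjusted p = 7.17e-05). With the filter, the first of these was 0.80 without blastocyst array 1 and did not pass (limma adjusted p = 0.0648).

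Btg2, an antiproliferative partner of the deadenylase complex, had overlapping signals at 4 stages and a lower one in 8-cell embryos, as scaled by the authors. The signal was 209.0, 258.2, 250.1 and 224.6 on the oocyte arrays, 240.5, 209.1 and 301.8 in 1-cell embryos and 195.1, 241.4 and 267.5 in 2-cell embryos. It was 165.1, 133.7, 155.7 and 142.3 in 8-cell embryos and 234.0, 306.2 and 190.3 in blastocysts. All 8-cell arrays lay below every other array, and the arrays of the other 4 stages overlapped. Btg2 fell by 0.61 ± 0.18 from the 2-cell to the 8-cell stage (limma adjusted p = 0.00706) and rose by 0.65 ± 0.18 to the blastocyst (adjusted p = 0.00653). Without blastocyst array 2 the rise was 0.48 and did not pass (limma adjusted p = 0.0612). With the spike scaling both steps held (-1.25 and 1.82), but 1-cell and 2-cell embryos were then lower than oocytes too, by -1.04 (limma adjusted p = 0.00746) and -0.90 (adjusted p = 0.0225).

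Ddit4, also called REDD1, an inhibitor of mTORC1 signalling, changed at every step, in alternating directions. The signal was 1527, 1605, 1334 and 1500 on the oocyte arrays, 3683, 3668 and 2998 in 1-cell embryos and 510.9, 755.2 and 987.0 in 2-cell embryos. It was 1839, 2261, 1485 and 2048 in 8-cell embryos and 92.9, 127.3 and 72.5 in blastocysts. The 1-cell arrays lay above all others and the blastocyst arrays below all others, while oocyte and 8-cell arrays overlapped. Ddit4 rose by 1.20 ± 0.20 from the oocyte to the 1-cell stage (limma adjusted p = 6.73e-05), fell by 2.23 ± 0.22 to the 2-cell stage (adjusted p = 1.89e-08) and rose by 1.37 ± 0.20 to the 8-cell stage (adjusted p = 6.51e-06). It then fell by 4.16 ± 0.20 to the blastocyst (limma adjusted p = 2.16e-12), to 97.6 ± 27.7 (n = 3) from 1908 ± 331 (n = 4).

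With the spike scaling, the first step of Ddit4 was 0.08 (limma adjusted p = 0.813). The other steps kept direction and call, at -2.0, 0.73 and -2.99. Oocytes and 8-cell embryos did not differ beyond their spread as scaled by the authors, but with the spike scaling 8-cell embryos were lower by -1.19 (limma adjusted p = 1.74e-04).

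As scaled by the authors, the order of the stages differed from gene to gene. Mdm2 was ordered as 1-cell above oocyte and 2-cell above 8-cell and blastocyst. Cdkn1a ran 8-cell, 2-cell, blastocyst, then oocyte and 1-cell together. With the spike scaling its blastocyst and 2-cell levels differed by -0.33 and were not called apart (limma adjusted p = 0.524). Its 1-cell level then lay below oocytes by -1.17 (limma adjusted p = 0.00494). All Cdkn1a signals of these stages were below the filter, and the median of all probe sets was -1.08 there. For Gadd45a the order was 2-cell, 1-cell, then oocyte, 8-cell and blastocyst, and the last 3 did not differ beyond their spread, although without 8-cell array 2 the 8-cell stage was below oocytes (-0.73, limma adjusted p = 0.0171), as it was with the spike scaling (-1.81, adjusted p = 1.93e-05). Ddit4 ran 1-cell, then 8-cell and oocyte together, then 2-cell and blastocyst, and without 8-cell array 3 the 8-cell stage was just above oocytes (0.45, limma adjusted p = 0.04997). Ccng1 was highest in blastocysts. Its 8-cell and oocyte levels were all below the filter. In the fit that keeps the filter they differed by 0.65 (limma adjusted p = 0.0384, with 65.7% of all probe sets called), although their arrays overlapped. This difference was not called there without 8-cell array 1, 2 or 3 or without oocyte array 2, 3 or 4 (limma adjusted p = 0.0622 to 0.143). With the spike scaling, also with the filter kept, it turned to -0.88 (limma adjusted p = 0.0331).

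Each step had member transcripts that changed, and the share of all 8067 probe sets that limma called is given beside each count. Ccng1 is not counted, which leaves 5 tested members. From the oocyte to the 1-cell stage 3 rose (Mdm2, Gadd45a and Ddit4) and 0 fell, also at an unadjusted p below 0.05, with 37.1% of all called (17.3% higher, 19.8% lower). From the 1-cell to the 2-cell stage 2 rose (Cdkn1a, Gadd45a) and 2 fell (Mdm2, Ddit4), with 47.1% of all called (25.9% higher, 21.2% lower). From the 2-cell to the 8-cell stage 2 rose (Cdkn1a, Ddit4) and 3 fell (Mdm2, Gadd45a, Btg2), with 54.0% of all called (25.8% higher, 28.3% lower). From the 8-cell stage to the blastocyst 1 rose (Btg2) and 2 fell (Cdkn1a, Ddit4), with 42.6% of all called (21.8% higher, 20.8% lower). Between oocyte and blastocyst 1 was higher at the end (Cdkn1a) and 2 lower (Mdm2, Ddit4), with 64.3% of all called (32.2% higher, 32.1% lower). These comparisons share arrays, so they are not independent of each other.

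**Figure D2:**
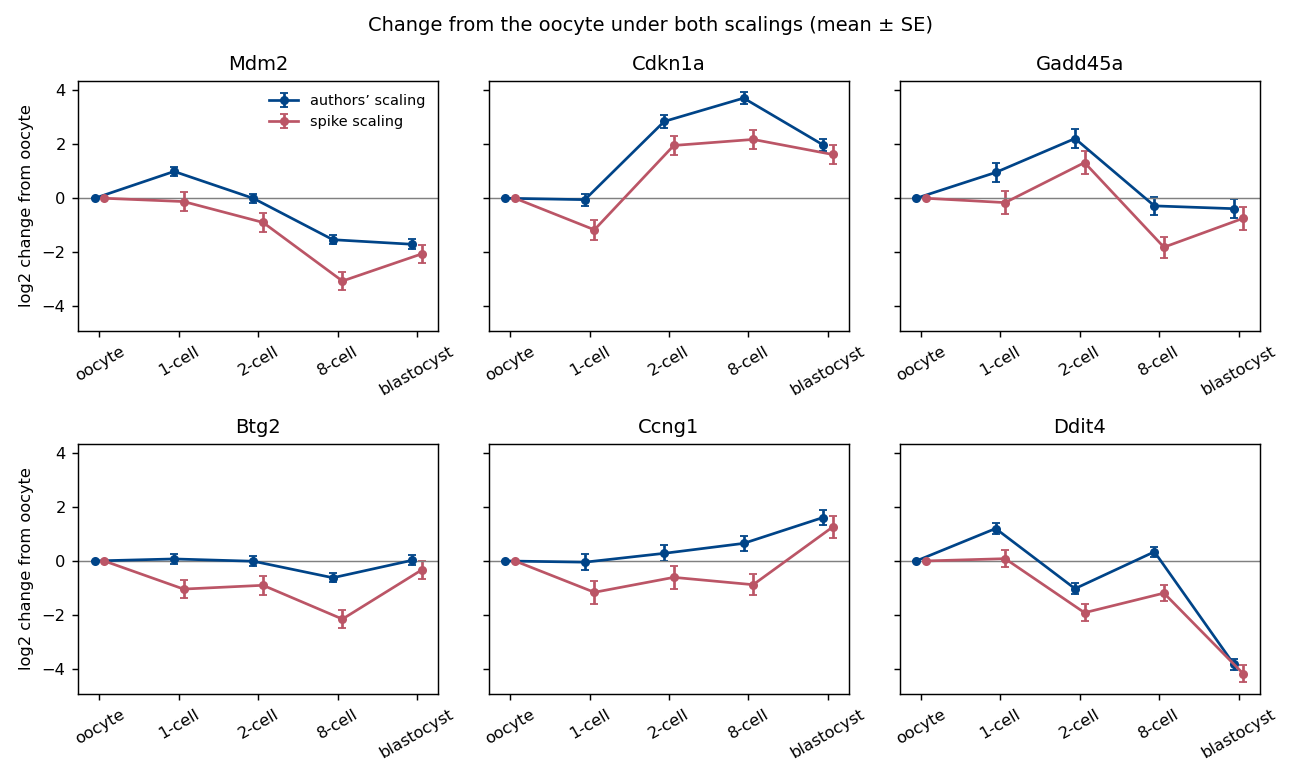
Log2 change from the oocyte of each tested member at the later stages (error bars, SE). The arrays are as scaled by the authors and as scaled on the hybridisation spikes. For 1-cell embryos against oocytes, Mdm2 moves from 0.99 to -0.12 and Ddit4 from 1.20 to 0.08. For 2-cell embryos against oocytes, the Cdkn1a change is 2.84 as scaled by the authors and 1.95 with the spike scaling.

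The spike scaling shifted the median of all probe sets to -1.08 for 1-cell embryos against oocytes, from 0.04. None of Mdm2, Gadd45a and Ddit4 was called higher there, and Btg2 (-1.04), Cdkn1a (-1.17) and Ccng1 (-1.16, with the filter kept) were called lower. Of all 8067 probe sets, 5360 were called lower and 18 higher, and these member values lay near the shifted median. Every oocyte and 1-cell signal of Cdkn1a and Ccng1 was below the filter, so their calls do not show a fall of these transcripts. For blastocysts against 8-cell embryos the median moved from -0.09 to 1.09, and Gadd45a was then higher by 1.07 (limma adjusted p = 0.0201) in place of -0.10 (adjusted p = 0.840). Btg2, at 1.82, still rose, and Ccng1 stood at 2.13. Of all probe sets, 5356 were called higher and 149 lower there.

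**Figure D3:**
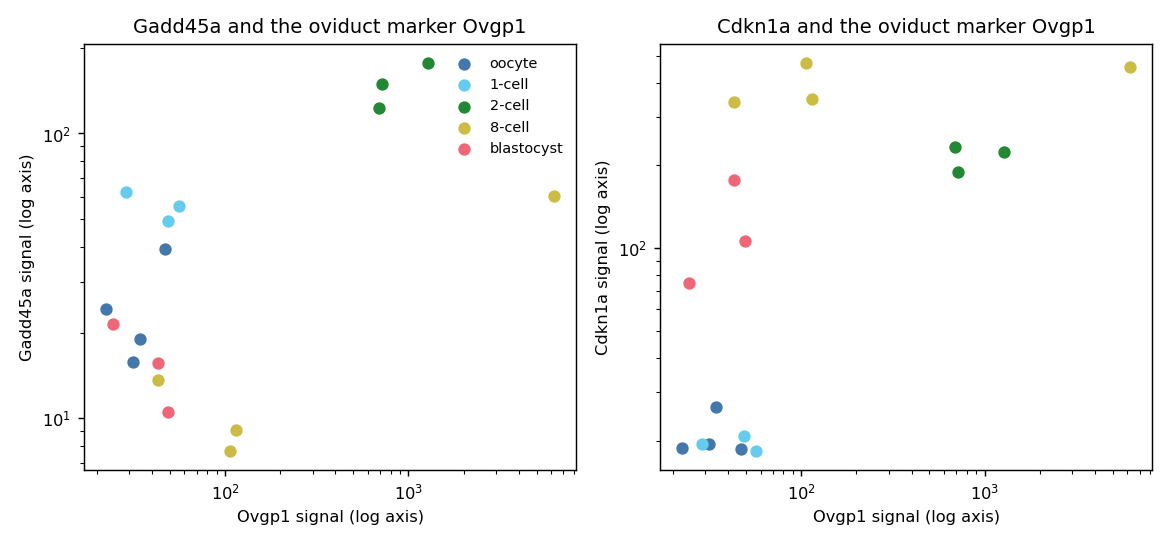
Signal of the oviduct glycoprotein gene Ovgp1 beside those of Gadd45a and Cdkn1a on each array (log axis). Array 2 of the 8-cell stage has 6212 for Ovgp1 and 60.1 for Gadd45a, against 43.1 to 114 and 7.70 to 13.6 on the other 8-cell arrays, while its Cdkn1a signal of 455.6 lies within theirs.

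Among genes that act on p53, more were lower than higher in blastocysts than in oocytes. Of 40 listed regulators, 24 were tested. The counts of this list and the later lists keep genes that passed the filter only through the stage where they are high. These include Hipk2 here, Cdkn1b and Gadd45b among the relatives of the members, and Myc, Vegfa and Xbp1 among the other stress genes. Their rises into that stage were built into selection. The shares of all probe sets keep such probe sets too. From the oocyte to the 1-cell stage 12 rose and 3 fell, which is 50% and 12.5%, against 17.3% and 19.8% of all probe sets (median change 0.54, against 0.04 for all), but with the spike scaling 0 rose and 9 fell. Hipk2, a kinase that phosphorylates p53, changed by 1.97 ± 0.42 (0.86 with the spike scaling, not called). Its probe set passed the filter only with the 1-cell arrays, where it is high, and without the filter limma gave an adjusted p = 0.00122. Ing1, a chromatin reader that works with p53, changed by 1.32 ± 0.18 (0.20 with the spike scaling, not called). Chek2, the checkpoint kinase that phosphorylates p53 after DNA breaks, fell by 1.56 ± 0.29.

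From the 1-cell to the 2-cell stage 8 regulators rose and 11 fell, which is 33.3% and 45.8%, against 25.9% and 21.2% of all (median -0.27, against 0.06 for all). Chek2 rose by 4.44 ± 0.31, from 21.8 ± 25.5 to 582 ± 116 (n = 3 each). Prkdc, the catalytic subunit of DNA-dependent protein kinase, rose by 2.30 ± 0.28, and Set, a histone chaperone that binds p53, rose by 2.70 ± 0.25. Trp53bp1, the 53BP1 protein that gathers at DNA breaks, fell by 2.64 ± 0.22, from 1831 ± 304 to 282 ± 11.5.

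From the 2-cell to the 8-cell stage 5 regulators rose and 11 fell, which is 20.8% and 45.8%, against 25.8% and 28.3% of all (median -0.52, against -0.06 for all; with the spike scaling 1 and 18). Mdm4, the relative of Mdm2 that blocks p53's activation domain, fell by 3.59 ± 0.16, from 3156 ± 509 (n = 3) to 250.5 ± 31.2 (n = 4), and a second probe set gave -4.95 ± 0.39. Mapk8, the stress kinase JNK1, fell by 3.85 ± 0.17 at its brighter probe set, while the dimmer gave -0.56 ± 0.31 and was not called. Both Mdm2 and Mdm4 transcripts fell at this step, also with the spike scaling (-2.17 and -4.24).

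From the 8-cell stage to the blastocyst 4 regulators rose and 10 fell, which is 16.7% and 41.7%, against 21.8% and 20.8% of all, but with the spike scaling 13 rose and 1 fell. Atm, the kinase that senses DNA double-strand breaks, changed by -1.45 ± 0.21 (-0.27 with the spike scaling, not called). Hif1a, the oxygen-regulated factor that binds Mdm2 and p53, rose by 2.37 ± 0.28. Over the whole course 6 regulators were higher and 15 lower in blastocysts, which is 25% and 62.5%, against 32.2% and 32.1% of all (median -0.77, against -0.07 for all; with the spike scaling 3 and 16). Trp53bp1 fell by 3.46 ± 0.21 and Pias1, a SUMO ligase, by 3.75 ± 0.22.

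The other p53 targets went both ways at each step. Of 63 listed, 31 were tested, and their medians lay between -0.23 and 0.23 in the 5 comparisons. In the order of the stages, 5 rose and 4 fell, 7 rose and 5 fell, 6 rose and 9 fell, and 6 rose and 5 fell. The shares that rose were 16.1%, 22.6%, 19.4% and 19.4%, against 17.3%, 25.9%, 25.8% and 21.8% of all probe sets. The shares that fell were 12.9%, 16.1%, 29% and 16.1%, against 19.8%, 21.2%, 28.3% and 20.8%, so the counts lay near or below those of the whole array. With the spike scaling these counts were 0 and 19, 6 and 1, 4 and 14, and 21 and 0, so directions at the first and last steps turn with the scaling. With quantile normalization the first was 5 and 1 and the second 5 and 7.

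Single targets changed strongly. At the 2-cell stage, with Cdkn1a, the cell cycle regulator Sertad1 rose by 4.46 ± 0.27, Ei24, an autophagy gene of the endoplasmic reticulum, by 3.11 ± 0.20 (350 ± 37.7 to 3154 ± 824, n = 3 each) and Sesn1, a sestrin that restrains mTORC1, by 1.91 ± 0.28. Dusp1, a phosphatase of MAP kinases, fell by 2.26 ± 0.20. At the 8-cell stage Sfn, the 14-3-3 sigma protein, rose by 4.05 ± 0.25 and Perp, a desmosomal membrane protein, by 3.51 ± 0.37, whereas Rrm2b, the p53-inducible subunit of ribonucleotide reductase, fell by 3.83 ± 0.30. In blastocysts Sfn was lower than in 8-cell embryos by -1.96 ± 0.25 (-0.78 with the spike scaling, not called). Perp ended 4.56 ± 0.37 above oocytes, and Sfn 2.97 ± 0.25.

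Relatives of the members mostly fell at the 8-cell stage. Of 15 listed paralogs, which include Mdm4 again, 11 were tested, and from the 2-cell to the 8-cell stage 1 rose and 8 fell, which is 9.09% and 72.7%, against 25.8% and 28.3% of all (median -2.16, against -0.06 for all; with the spike scaling 0 and 9). Btg4, which brings deadenylases to maternal mRNA, fell by 6.47 ± 0.21, from 5230 ± 1271 (n = 3) to 48.2 ± 14.6 (n = 4). Ccng2, cyclin G2, fell by 4.57 ± 0.22, from 785 ± 183 to 22.7 ± 6.33. At the same step Btg2 changed by -0.61 ± 0.18, and Ccng1 was below the filter at both stages.

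At the other steps the paralogs went both ways. From the oocyte to the 1-cell stage 5 rose and 2 fell (45.5% and 18.2%, against 17.3% and 19.8% of all), with 0 and 6 under the spike scaling. From the 1-cell to the 2-cell stage 4 rose and 3 fell (36.4% and 27.3%, against 25.9% and 21.2% of all), with 2 and 6 under median centring. From the 8-cell stage to the blastocyst 3 rose and 4 fell (27.3% and 36.4%, against 21.8% and 20.8% of all), with 5 and 0 under the spike scaling. Over the whole course 2 were higher and 7 lower in blastocysts (18.2% and 63.6%, against 32.2% and 32.1% of all), with 1 and 7 under the spike scaling. Gadd45b, like Gadd45a a stress-inducible gene of its family, rose by 4.14 ± 0.26 at the 2-cell stage, and its other probe set gave 1.95 ± 0.29. The first passed the filter only with the 2-cell arrays, where it is high, and was called without the filter too (limma adjusted p = 1.32e-10). Gadd45g, the third of the family, rose instead in blastocysts, by 1.97 ± 0.26 from the 8-cell stage. Cdkn1c, the p57 inhibitor, changed by 1.89 ± 0.25 from the oocyte to the 1-cell stage (0.77 with the spike scaling, not called) and fell by 1.73 ± 0.27 to the 2-cell stage. Cdkn1b, the p27 inhibitor, changed by 1.36 ± 0.33 (0.24 with the spike scaling, not called) and -1.31 ± 0.35 at the same steps (-1.09, not called). It passed the filter only with the 1-cell arrays, where it is high, and without the filter limma gave an adjusted p = 0.00453 and 0.00700. Their changes at the 2-cell stage had the opposite sign to that of Cdkn1a.

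More of the other stress genes were higher than lower in blastocysts. Of 34 listed genes of the integrated stress, unfolded protein, hypoxia, oxidative and mTORC1 responses, 26 were tested. From the oocyte to the 1-cell stage 6 rose and 4 fell (23.1% and 15.4%, against 17.3% and 19.8% of all), but without 1-cell array 1 the rises were 3, and with the spike scaling 0 rose and 17 fell. From the 1-cell to the 2-cell stage 8 rose and 3 fell (30.8% and 11.5%, against 25.9% and 21.2% of all; with median centring 6 and 5). From the 2-cell to the 8-cell stage 4 rose and 7 fell (15.4% and 26.9%, against 25.8% and 28.3% of all; with median centring 6 and 6, with the spike scaling 1 and 10). Between the 8-cell stage and the blastocyst 10 rose and 1 fell (38.5% and 3.85%, against 21.8% and 20.8% of all; with the spike scaling 21 and 0). Over the whole course 12 were higher and 5 lower (46.2% and 19.2%, against 32.2% and 32.1% of all; with the spike scaling 9 and 5). The median over the whole course was 0.67, against -0.07 for all.

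Trib3, a pseudokinase of the integrated stress response, rose by 2.96 ± 0.32 at the 2-cell stage, and Ppp1r15b, which restores translation by way of eIF2, by 3.46 ± 0.27. Ddit3, the CHOP factor of the unfolded protein response, fell by 1.51 ± 0.43 from the oocyte to the 1-cell stage. Eif4ebp1, the translation repressor that mTORC1 phosphorylates, rose by 2.56 ± 0.27 at the 8-cell stage. In blastocysts, where Ddit4 was lowest, Asns, asparagine synthetase, rose by 1.75 ± 0.17 and Xbp1, a factor of the unfolded protein response, by 1.91 ± 0.39. Xbp1 passed the filter only with the blastocyst arrays, where it is high, and without the filter limma gave an adjusted p = 9.16e-04.

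**Figure D4:**
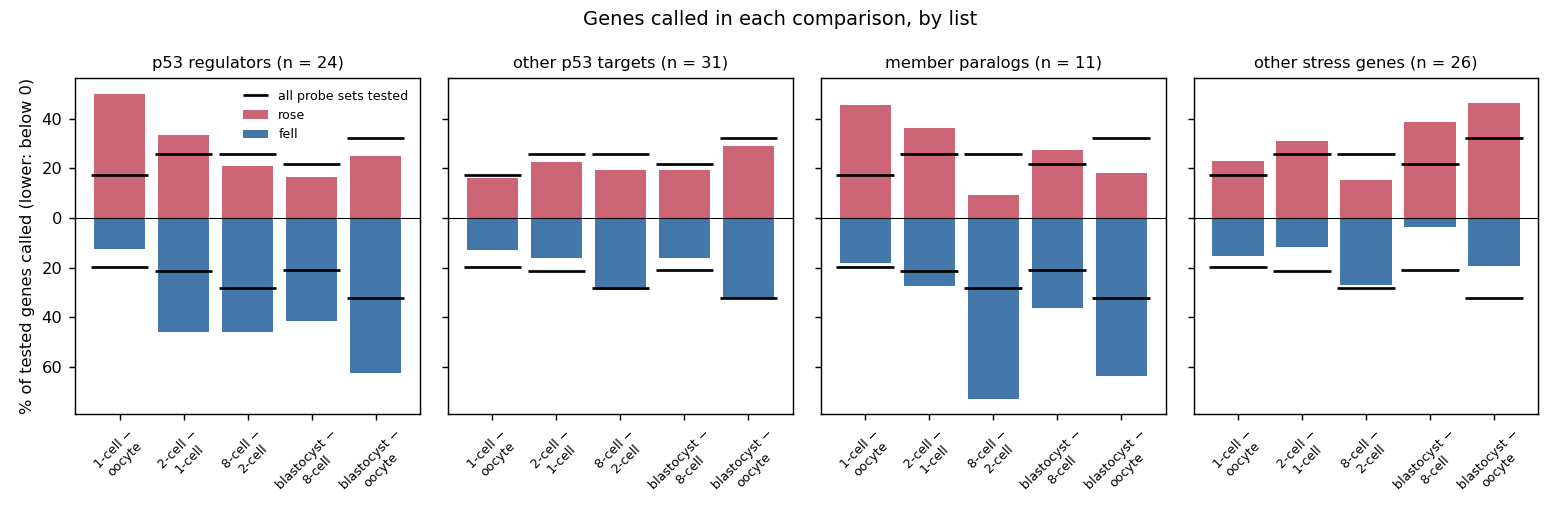
Share of tested genes called higher (above 0) or lower (below 0) in each list and comparison, beside that of all probe sets. Genes that passed the filter only through the stage where they are high are kept. Of 24 p53 regulators, 12 are higher in 1-cell embryos than in oocytes and 15 lower in blastocysts than in oocytes.

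The genes whose profile was most like each member's were found by the correlation of log2 signals over the 17 arrays, among 6043 genes. Arrays of a stage share that stage, so a high value reflects mainly a like order of the 5 stages. For Mdm2 they were Kdm6a (r = 0.985), Ezh1 (0.984) and Dnaaf5 (0.982). The Kdm6a signal was 1041 ± 120 in oocytes (n = 4), 2273 ± 96.6 in 1-cell embryos (n = 3) and 185 ± 14.5 in blastocysts (n = 3). For Cdkn1a they were Alppl2, Wsb1 (both r = 0.985) and Gcsh (0.984), and Wsb1 went from 114 ± 5.14 in 1-cell embryos to 1349 ± 167 in 2-cell embryos (n = 3 each).

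For Gadd45a the nearest was Xiap (r = 0.951), with 54.2 ± 5.80 in 2-cell embryos and 1.53 ± 0.75 in blastocysts, then Arl2bp (0.894) and Csnk1a1 (0.883). For Ccng1 they were Crip1 (0.947), Slc38a2 (0.936) and Xbp1 (0.928), and for Ddit4 Ptpn22 (0.948), Med20 (0.944) and Crnkl1 (0.934). Btg2, with its small changes, had the weakest likeness, to Srsf10 (0.847), Rdh11 (0.845) and Errfi1 (0.833). The stage mean of Xiap was above the filter only in 2-cell embryos, and those of Crip1 and Slc38a2 only in blastocysts. Xbp1 and Ccng1 passed the filter only with the blastocyst arrays. Part of the likeness of Ccng1 to Crip1, Slc38a2 and Xbp1, and of Gadd45a to Xiap, was thus built into selection. The likeness is a description of these arrays and carries no test.

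No probe set measured Trp53 alone, but 2 were annotated to Trp53-ps, a processed pseudogene whose sequence is like that of Trp53. Their signal may therefore include Trp53 transcripts, and the sources cannot be told apart here. These probe sets are outside the member rule and were looked at after the member values were seen. The brighter was at 87.4 ± 2.27 in oocytes (n = 4), 114 ± 17.6 in 1-cell embryos (n = 3), 161 ± 8.21 in 2-cell embryos (n = 3), 94.8 ± 39.8 in 8-cell embryos (n = 4) and 76.0 ± 26.1 in blastocysts (n = 3). It was 0.80 ± 0.25 higher in 2-cell embryos than in oocytes (limma adjusted p = 0.0101) and fell by 0.78 ± 0.25 to the 8-cell stage (adjusted p = 0.0116). The dimmer had stage means of 23.7 to 31.0, below the filter, and did not show the 2-cell peak of the brighter. Fitted without the filter, it gave -0.17 ± 0.27 for 2-cell embryos against oocytes (limma adjusted p = 0.695). For 8-cell against 2-cell embryos it gave 0.31 ± 0.27 (limma adjusted p = 0.416).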

How the data were processed

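Each of 17 samples was 1 Affymetrix MG-U74Av2 array. The authors deposited a table of intensity values, 1 linear signal per probe set and array; the software and scaling target behind it are not given in the sources used here. The mean of the middle 96% of an array's values was 150.097 to 150.133, so the arrays had been scaled to a common level, and no further scaling was applied. Array medians were 34.05 to 49.15, and 5 values were 0.

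Values were taken to log2 after adding 10.7, the 25th percentile. Kept were probe sets whose signal passed 41.1 (the overall median) on 3 or more arrays, without 66 controls: 8067 probe sets for 6044 genes. Gene symbols were those of the platform annotation, updated by Entrez ID. A mean per stage was fitted with limma 3.58.1 in R 4.3.3 (eBayes with trend, 12 residual degrees of freedom), two-sided, with Benjamini-Hochberg adjustment within each comparison and calls at an adjusted p below 0.05. A gene of a list was represented by its probe set with the highest mean.

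The members and lists were chosen with earlier results of these data known, so no pattern in them is independent support. Named genes were all members, up to 4 genes of a list per comparison with the largest called change and no overlap of arrays, and the 3 genes most like each member; the text uses part of these. The spike scaling centred each array on 9 hybridisation spike probe sets. The other alternatives were quantile normalization, median centring, offsets of 1 and 41.1, no filter, a filter at 152.5, no trend, array weights, the replicate block, only the 2 stages compared, and each array left out. The fit was tested on simulated data. Promoter sequences are RefSeq's, on GRCm38.p6.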

Additional observations from a re-analysis of the deposited data

Results flagged for a closer look

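Of 14 groups of 4 arrays examined, 2 held an array whose gap to its nearest neighbour, divided by the range of the group, was above Dixon's critical value. Chance alone gives about 1 in 20 groups such an array.

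In oocytes, Cdkn1a on array 3 had a signal of 26.5, against 18.6 to 19.4 on the other 3, a ratio of 0.899. All 4 signals were below the filter of 41.1. In 8-cell embryos, Gadd45a on array 2 had 60.1, against 7.70 to 13.6, a ratio of 0.887. The same array had the high Ovgp1 signal of 6212, and the part of that in the Gadd45a value was not tested.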

How the results depend on the processing

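Across the alternatives, the spike scaling altered most: 16 results turned, 22 lost a call and 5 gained one, while dropping the intensity trend altered none. With it 5378 probe sets were called for 1-cell embryos against oocytes (18 higher, 5360 lower, in place of 1398 and 1595) and 5505 for blastocysts against 8-cell embryos (5356 higher, 149 lower, in place of 1759 and 1674). For 1-cell embryos against oocytes it turned Mdm2 (-0.12), Gadd45a (-0.16), Btg2 (-1.04), Rrm2b (-0.039), Siva1 (-0.11), Gclm (-0.16) and Gclc (-0.20). It also turned Btg2 for 2-cell against 1-cell embryos (0.14), blastocysts against oocytes (-0.33) and blastocysts against 1-cell embryos (0.71), and Ccng1 for 8-cell against 2-cell embryos (-0.27), 2-cell embryos against oocytes (-0.61) and 8-cell embryos against oocytes (-0.88). For blastocysts against 8-cell embryos it turned Mdm2 (1.01) and Gadd45a (1.07), and for 8-cell embryos against oocytes Ddit4 (-1.19). The cause was not tested.

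The other turned results were small and uncalled. Quantile normalization turned Cdkn1a (0.11) and Ccng1 (0.088) for 1-cell embryos against oocytes, Ccng1 for 2-cell against 1-cell embryos (-0.18) and against oocytes (-0.091), Mdm2 for 2-cell embryos against oocytes (0.065) and Btg2 for blastocysts against oocytes (-0.0063). Median centring turned Cdkn1a (0.0024) and Ccng1 (0.0097) at the first step and Btg2 for blastocysts against oocytes (-0.0023), and split all probe sets called at the 2-cell step into 1612 higher and 2436 lower, in place of 2090 and 1712. At the 8-cell step it gave 2381 higher and 1935 lower, in place of 2080 and 2279. Array weights turned Btg2 for 1-cell embryos against oocytes (-0.013), 2-cell against 1-cell embryos (0.032), 2-cell embryos against oocytes (0.019) and blastocysts against 1-cell embryos (0.087), and Mdm2 for 2-cell embryos against oocytes (0.012).

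With each array left out in turn, changes that took both signs were Cdkn1a (-0.085 to 0.030), Ccng1 (-0.12 to 0.088) and Btg2 (-0.062 to 0.19) for 1-cell embryos against oocytes, Gadd45a for blastocysts against 8-cell embryos (-0.31 to 0.34) and Mdm2 for 2-cell embryos against oocytes (-0.10 to 0.097). Btg2 did so for 2-cell against 1-cell embryos (-0.20 to 0.051), 2-cell embryos against oocytes (-0.11 to 0.11), and blastocysts against oocytes (-0.15 to 0.18), 1-cell embryos (-0.22 to 0.11) and 2-cell embryos (-0.13 to 0.19). The Gadd45a call for 1-cell embryos against oocytes also ended with an offset of 1 (1.23, limma adjusted p = 0.0699) and with no filter (adjusted p = 0.0711).

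The replicate numbers of the titles showed no clear pairing of the samples. The deviations of 31 same-numbered pairs correlated at -0.08 to 0.12, with 2 over 0.1, both between 8-cell embryos and blastocysts. With the replicate block, limma called 2835, 3792, 4237, 3302 and 5094 probe sets in the 5 comparisons, and of the member results it ended only the Gadd45a call for 1-cell embryos against oocytes (0.86, adjusted p = 0.0802). Signals below the filter, such as Cdkn1a in oocytes, limit any fold.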
